A study of Homo sapiens with 45 samples.

Results

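Transcripts of 10 genes of antigen processing and presentation were followed on 45 arrays of HEY, SKOV3 and PC3 cells: PSMB8, PSMB9, PSMB10, TAP1, TAP2, TAPBP, ERAP1, ERAP2, B2M and HLA-E. The genes were chosen by name, and every probe set annotated to 1 of these symbols and to no other gene was taken, which gave 27 of the 54675 probe sets of the array. All 10 genes were among the 15599 genes tested, and 25 of their 27 probe sets passed the filter on dim values. A probe set of ERAP1 (214034_at) and one of ERAP2 (1554272_at) did not pass.

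HEY and SKOV3 are ovarian cancer lines and PC3 is a prostate cancer line, all grown in serum-containing medium. In each line 3 groups received a miRNA precursor at 33 nM (miR-203a in one, miR-205 in another, miR-429 in the last), 1 group received a negative-control precursor (miR-NC) at the same dose, and 1 group is labelled untransfected. RNA was taken 48 h after transfection. Each of the 15 groups has 3 arrays, and the transfection reagent is shared by the 12 transfected groups, miR-NC included. Nothing in the labels tells whether arrays of 1 group are separate cultures, and each p-value measures the spread between arrays only. The title of the study concerns differences between cancer cell types in their response to such miRNAs. Values are log2 intensities, a level below 4.89 (the median over every probe set and array) counts as near background, and a gene is called where its adjusted p from limma is under 0.05. RNA was taken from whole wells, so a change in the share of cells that carry a transcript and a change in the amount per cell cannot be told apart. The level of each transfected miRNA was not analysed here.

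Genes that mark a line were read first, to check the labels. ERBB2, which is amplified in SKOV3, was at 12.31 ± 0.39 on the untransfected arrays named HEY and at 7.60 ± 0.38 on those named SKOV3 (SD, n = 3 each), against 6.83 ± 0.13 in HEY miR-NC and 11.34 ± 0.08 in SKOV3 miR-NC. HOXB13, a homeobox gene of the prostate, was at 11.73 ± 0.09 on the untransfected arrays named SKOV3, but at 4.36 ± 0.23 on the untransfected arrays named PC3. Group means of HOXB13 over the transfected arrays ran from 5.36 to 8.19 in PC3, from 6.24 to 6.70 in SKOV3 and from 4.35 to 5.03 in HEY, so HOXB13 does not separate transfected PC3 from transfected SKOV3 and does not settle the PC3 label there. The 9 arrays labelled untransfected go against their labels in these genes, and only levels are given for them. A fit without them left the count of called members unchanged within 1.5 times in all 10 comparisons of miRNA groups. Array medians ran from 4.49 to 4.98, and the lowest correlation across probe sets between arrays of 1 group was 0.969, in the arrays labelled untransfected HEY.

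Nucleated cells display fragments of their own proteins on class I molecules, where cytotoxic T cells read them. The proteasome cuts proteins into peptides, the TAP transporter carries them into the endoplasmic reticulum, aminopeptidases trim them, and tapasin helps load them onto a heavy chain paired with beta-2-microglobulin. Many of these genes are induced together by interferon, through elements in their promoters that bind STAT and IRF proteins, and tumours often express them weakly.

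The 3 mature miRNAs are shown because the groups are defined by them, with the seed (bases 2 to 8, which pairs with targets) in capitals. They were taken from RefSeq (GRCh38.p14) and lie on the plus strand at chr14:104117469-104117490, chr1:209432166-209432187 and chr1:1169055-1169076. The precursors in the labels name no arm for miR-203a and miR-205, and the 3p and 5p arms shown are the usual guide strands. No seed is shared between them, so the groups compare miRNAs with different seeds.
miR-203a-3p: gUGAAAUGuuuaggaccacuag
miR-205-5p: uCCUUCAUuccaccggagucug
miR-429: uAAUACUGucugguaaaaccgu

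Of the 10 genes, 6 lie on chromosome 6 in GRCh38.p14. TAP2, PSMB8, TAP1 and PSMB9 follow each other within chr6:32821831-32859851, TAPBP lies at chr6:33299694-33314078 and HLA-E at chr6:30489509-30494194. ERAP1 (chr5:96760813-96935854) and ERAP2 (chr5:96875984-96919716) have annotated intervals that overlap. PSMB10 lies at chr16:67934506-67936850 and B2M at chr15:44711517-44718145. The annotated start of PSMB9 lies 488 bases from that of TAP1, on the opposite strand.

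Promoter windows of 300 bases (RefSeq, GRCh38.p14) were matched for 9 of the 10 genes, since HLA-E was not matched. The letters GAAANNGAAA, the core of the interferon-stimulated response element (ISRE), were searched on both strands. They stood in a window of 8 of these 9 genes, and in 3.57% of 35116 windows of the same length. By window the count was 8 of 13, since 4 of the genes have several windows. The stretches are printed because these genes moved together in PC3 given miR-205, with the matched letters in capitals and 15 bases on either side. Each is read on the gene's own strand, so matches on the other strand appear as TTTC repeats.
TAP1, chr6:32853808-32853853, strand -: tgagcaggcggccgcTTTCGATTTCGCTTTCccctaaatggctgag
TAP2, chr6:32838773-32838812, strand -: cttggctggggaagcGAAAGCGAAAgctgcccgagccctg
TAPBP, chr6:33314068-33314113, strand -: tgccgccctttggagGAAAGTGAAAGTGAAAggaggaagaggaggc
PSMB8, chr6:32844027-32844066, strand -: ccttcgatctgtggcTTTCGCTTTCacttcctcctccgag
PSMB10, chr16:67936847-67936886, strand -: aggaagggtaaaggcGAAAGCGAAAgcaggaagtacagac
B2M, chr15:44711358-44711403, strand +: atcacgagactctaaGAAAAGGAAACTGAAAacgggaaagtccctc
ERAP1, chr5:96807919-96807958, strand -: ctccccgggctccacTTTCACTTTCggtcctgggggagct
ERAP2, chr5:96876455-96876494, strand +: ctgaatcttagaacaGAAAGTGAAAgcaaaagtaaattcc
In TAP1, TAPBP and B2M, 2 matches overlap. The match of TAP1 lies at -134 to -119 from its start, which places it between the starts of TAP1 and PSMB9, and the windows of PSMB9 itself held no match. The GAS element bound by STAT dimers (TTCNNNGAA) stood in 2 of the 13 windows, of 2 genes, against 7.66% of all windows. The NF-kB motif stood in 4 of the 13 windows, of 4 genes, against 11.3% of all windows. A match describes the letters in a window and does not show that a factor binds there.

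In PC3 cells given miR-205 all 10 genes were called higher than in PC3 given miR-NC. Over all genes tested 28.7% were called higher in that comparison, and 48.4% were called in either direction. The median change of the 10 genes was 1.99 on the log2 scale, against 0.054 over all genes, and the single changes ran from 0.56 for ERAP1 to 3.15 for PSMB8 and PSMB9. The catalytic subunits of the immunoproteasome, TAP1, tapasin and HLA-E moved most, and B2M, ERAP1 and ERAP2 least.

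**Figure D1:**
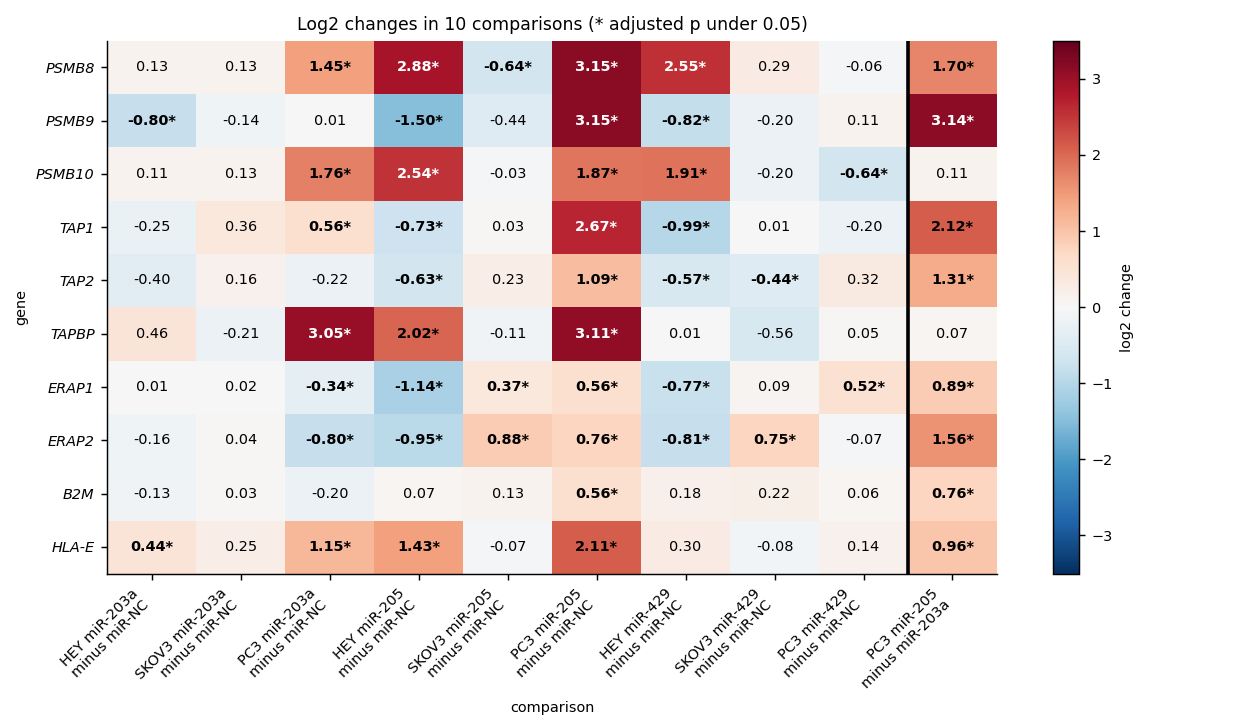
Log2 change of each gene (rows) in the 9 comparisons of a miRNA with miR-NC and, right of the black line, in PC3 miR-205 against PC3 miR-203a (columns). Red is higher and blue lower in the group named first, and an asterisk marks an adjusted p under 0.05; the PC3 miR-205 column is marked in all 10 rows, and the SKOV3 miR-203a column in none.

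PSMB8, PSMB9 and PSMB10 encode the beta5i, beta1i and beta2i catalytic subunits, which replace constitutive subunits when the immunoproteasome forms. PSMB9 had 8.96, 8.91 and 9.23 in PC3 miR-205, against 6.33, 5.64 and 5.68 in PC3 miR-NC. All 3 miR-205 arrays lay above all 3 miR-NC arrays, and the difference was 3.15 ± 0.20 (SE; 8.86-fold; limma, adjusted p = 3.56e-15). PSMB8 had 7.74, 7.43 and 7.98 in PC3 miR-205, against 4.30, 4.77 and 4.63 in PC3 miR-NC, a change of 3.15 ± 0.18 (SE; adjusted p = 1.88e-16). PSMB10 had 6.42, 6.33 and 6.92 in PC3 miR-205, against 4.73, 4.70 and 4.62 in PC3 miR-NC, a change of 1.87 ± 0.18 (SE; adjusted p = 5.26e-11). The groups do not overlap for either gene, and the share of all genes whose arrays separate in this way was not computed. The PC3 miR-NC means of PSMB8 (4.57 ± 0.24) and PSMB10 (4.68 ± 0.06) lay below 4.89, near background, so the sizes of their rises are uncertain.

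TAP1 and TAP2 encode the subunits of the peptide transporter, and TAPBP encodes tapasin, the bridge between the transporter and class I. TAP1 had 10.91, 11.01 and 11.26 in PC3 miR-205, against 8.63, 8.25 and 8.28 in PC3 miR-NC, which is 2.67 ± 0.17 higher (SE; 6.39-fold; adjusted p = 2.05e-15). Its PC3 miR-205 arrays held the highest TAP1 values of all 45 arrays. TAP2 rose less, to 10.24, 10.20 and 10.58 in PC3 miR-205, against 9.41, 9.28 and 9.08 in PC3 miR-NC (change 1.09 ± 0.14, SE; adjusted p = 7.54e-08). TAPBP had 10.12, 10.16 and 9.69 in PC3 miR-205, against 6.10, 7.27 and 7.26 in PC3 miR-NC (change 3.11 ± 0.24, SE; adjusted p = 3.36e-13). The gap between the TAPBP groups exceeded the spread of the miR-NC arrays, of which 1 lay more than a log2 unit below the others.

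ERAP1 and ERAP2 trim peptides in the endoplasmic reticulum. ERAP1 had 10.08, 10.09 and 10.15 in PC3 miR-205, against 9.62, 9.38 and 9.64 in PC3 miR-NC (change 0.56 ± 0.12, SE; adjusted p = 0.00029). ERAP2 had 8.96, 8.77 and 8.94 in PC3 miR-205, against 8.38, 8.06 and 7.93 in PC3 miR-NC (change 0.76 ± 0.27, SE; adjusted p = 0.0166). The groups of both genes do not overlap, but ERAP2 lost its call when PC3 miR-NC replicate 3 was left out (change 0.66, adjusted p = 0.0679). How many of all genes separate in this way was not computed.

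B2M is the light chain of every class I molecule, and HLA-E is a class I heavy chain read by natural killer cells. B2M was bright in every group, and it had 13.17, 13.15 and 13.22 in PC3 miR-205, against 12.72, 12.62 and 12.51 in PC3 miR-NC (change 0.56 ± 0.089, SE; 1.48-fold; adjusted p = 2.28e-06). HLA-E had 9.09, 9.20 and 9.23 in PC3 miR-205, against 7.03, 6.98 and 7.17 in PC3 miR-NC (change 2.11 ± 0.13, SE; 4.33-fold; adjusted p = 1.96e-15). The arrays of the groups do not overlap for either gene, and the share of all genes for which this holds was not computed. The highest value of any probe set on any array was 14.87, and whether the scale limited the change of B2M was not tested.

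A second comparison within PC3 sets miR-205 against miR-203a, whose control probe sets lie closer to each other than either lies to miR-NC. With miR-205 8 of the 10 genes were called higher than with miR-203a and 0 lower, while 12.9% of all genes were called higher and 24.8% in either direction. The median change of the 10 genes was 1.13, against -0.032 over all genes. PSMB9 had 5.95, 5.81 and 5.93 in PC3 miR-203a and was 3.14 ± 0.20 higher in PC3 miR-205 (SE; adjusted p = 8.57e-15). TAP1 had 9.04, 8.82 and 8.96 in PC3 miR-203a and was 2.12 ± 0.17 higher in PC3 miR-205 (SE; adjusted p = 1.93e-12). PSMB8 was 1.70 ± 0.18, ERAP2 1.56 ± 0.27, TAP2 1.31 ± 0.14, HLA-E 0.96 ± 0.13, ERAP1 0.89 ± 0.12 and B2M 0.76 ± 0.089 higher in PC3 miR-205 (SE; largest adjusted p = 2.57e-05). For each of these 8 genes the 3 miR-205 arrays lay above the 3 miR-203a arrays. The share of all genes whose arrays separate in this way was not computed.

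TAPBP and PSMB10 did not pass the test in that comparison. TAPBP had 10.12, 10.16 and 9.69 in PC3 miR-205 and 10.02, 10.09 and 9.66 in PC3 miR-203a, a difference of 0.066 with a 95% interval of -0.42 to 0.55 (adjusted p = 0.883). PSMB10 had 6.42, 6.33 and 6.92 in PC3 miR-205 and 6.83, 6.28 and 6.22 in PC3 miR-203a, a difference of 0.11 with a 95% interval of -0.25 to 0.47 (adjusted p = 0.706). The arrays of the groups overlap for both genes.

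Against miR-NC, miR-203a in PC3 gave a split pattern, with 5 of the 10 genes called higher and 2 lower, where 56.1% of all genes were called. TAPBP rose by 3.05 ± 0.24, PSMB10 by 1.76 ± 0.18, PSMB8 by 1.45 ± 0.18, HLA-E by 1.15 ± 0.13 and TAP1 by 0.56 ± 0.17 (SE; largest adjusted p = 0.00459). The sizes for PSMB10 and PSMB8 are uncertain, since their PC3 miR-NC means lay below 4.89. ERAP2 fell to 7.20, 7.24 and 7.53 in PC3 miR-203a, against 8.38, 8.06 and 7.93 in PC3 miR-NC (change -0.80, adjusted p = 0.0103). ERAP1 changed by -0.34 (adjusted p = 0.0198), and its 209701_at probe set by 0.73, in the opposite direction. ERAP1 lost its call in 3 of 6 fits that left out an array (without PC3 miR-NC replicate 1 or 3, or PC3 miR-203a replicate 1; adjusted p up to 0.112 from limma), and ERAP2 lost it without PC3 miR-NC replicate 1 (adjusted p = 0.057). With the probe sets of a gene averaged, ERAP2 changed by -0.13 (adjusted p = 0.67). PSMB9 averaged 5.90 ± 0.08 in PC3 miR-203a and 5.89 ± 0.39 in PC3 miR-NC (SD, n = 3 each), and TAP2 and B2M also did not pass the test.

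Several members have more than 1 probe set, and each was tested among 31153 probe sets. In PC3 miR-205 against miR-NC 18 of the 25 tested probe sets were called higher and 0 lower, against 46.7% of all probe sets called in either direction. In PC3 miR-205 against PC3 miR-203a 19 of 25 were called higher and 0 lower, against 21.3% of all probe sets. All 3 probe sets of HLA-E were called higher in both comparisons. One of them, 200904_at, lacks the _x_at ending that marks probes shared between genes, and it changed by 3.02 against miR-NC and by 0.87 against miR-203a. Of the 4 tested probe sets of ERAP1, 1 was called against miR-NC (209788_s_at) and 3 against miR-203a. Of the 3 probe sets of TAPBP, 2 were called against miR-NC, while 210294_at changed by -0.32 without passing, and 0 were called against miR-203a.

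**Figure D2:**
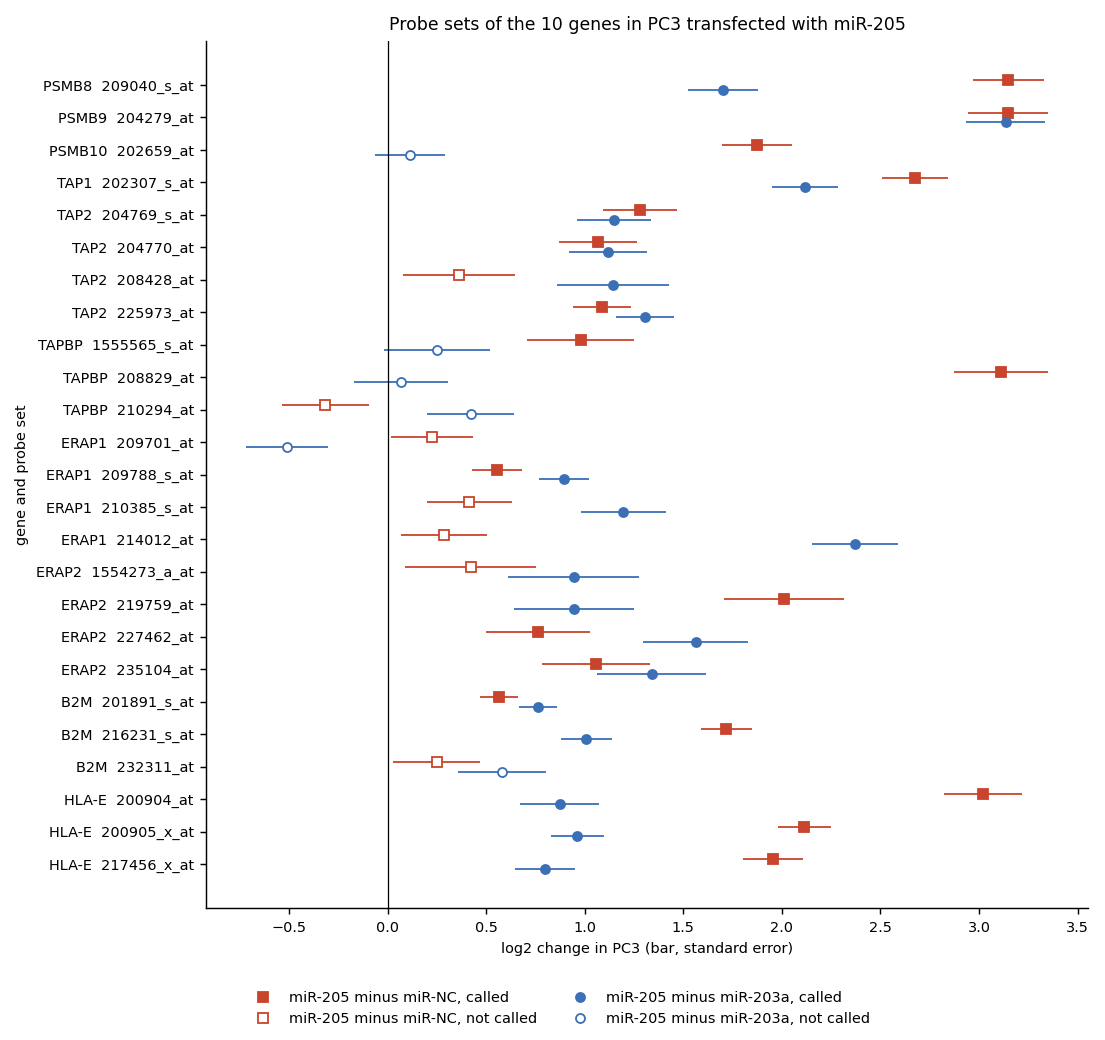
Log2 change in PC3 given miR-205 (horizontal axis, bar, standard error) for the 25 tested probe sets of the 10 genes (rows), against miR-NC in red squares and against miR-203a in blue circles. Filled symbols have an adjusted p under 0.05: 18 red and 19 blue symbols are filled, all right of the line at 0.

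Control probe sets that read the 5-prime end of GAPDH and ACTB moved in the same groups, and their part in the results was not tested. The GAPDH 5-prime probe set averaged 8.70 ± 0.58 in PC3 miR-205, 9.99 ± 0.38 in PC3 miR-203a and 5.04 ± 1.18 in PC3 miR-NC (SD, n = 3 each). Its differences from PC3 miR-NC were 3.66 with miR-205 and 4.95 with miR-203a, and the difference of miR-205 from miR-203a was -1.29. The ACTB 5-prime probe set differed from PC3 miR-NC by 2.73 in PC3 miR-205 and by 3.73 in PC3 miR-203a. In HEY the GAPDH 5-prime difference from miR-NC was 3.92 with miR-205 and -2.11 with miR-429. In the other 5 comparisons with miR-NC it lay between -0.50 and 0.58. The ACTB 5-prime difference in HEY was 1.22 with miR-205 and -0.97 with miR-429. TAPBP, HLA-E, PSMB8 and PSMB10 were each called higher in all 3 groups where the GAPDH 5-prime signal exceeded miR-NC by over 3 log2 units. In HEY miR-429, where that signal was below miR-NC (-2.11), PSMB8 and PSMB10 were also called higher, and TAPBP and HLA-E were not called. PSMB9, TAP1, TAP2, ERAP1 and ERAP2 rose in PC3 miR-205, where that signal exceeded miR-NC, and fell in HEY miR-205, where it also did. These statements hold for the probe set used per gene. In HEY miR-205 other probe sets of TAP2, ERAP1 and ERAP2 were called higher, and another of TAPBP was called lower.

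**Figure D3:**
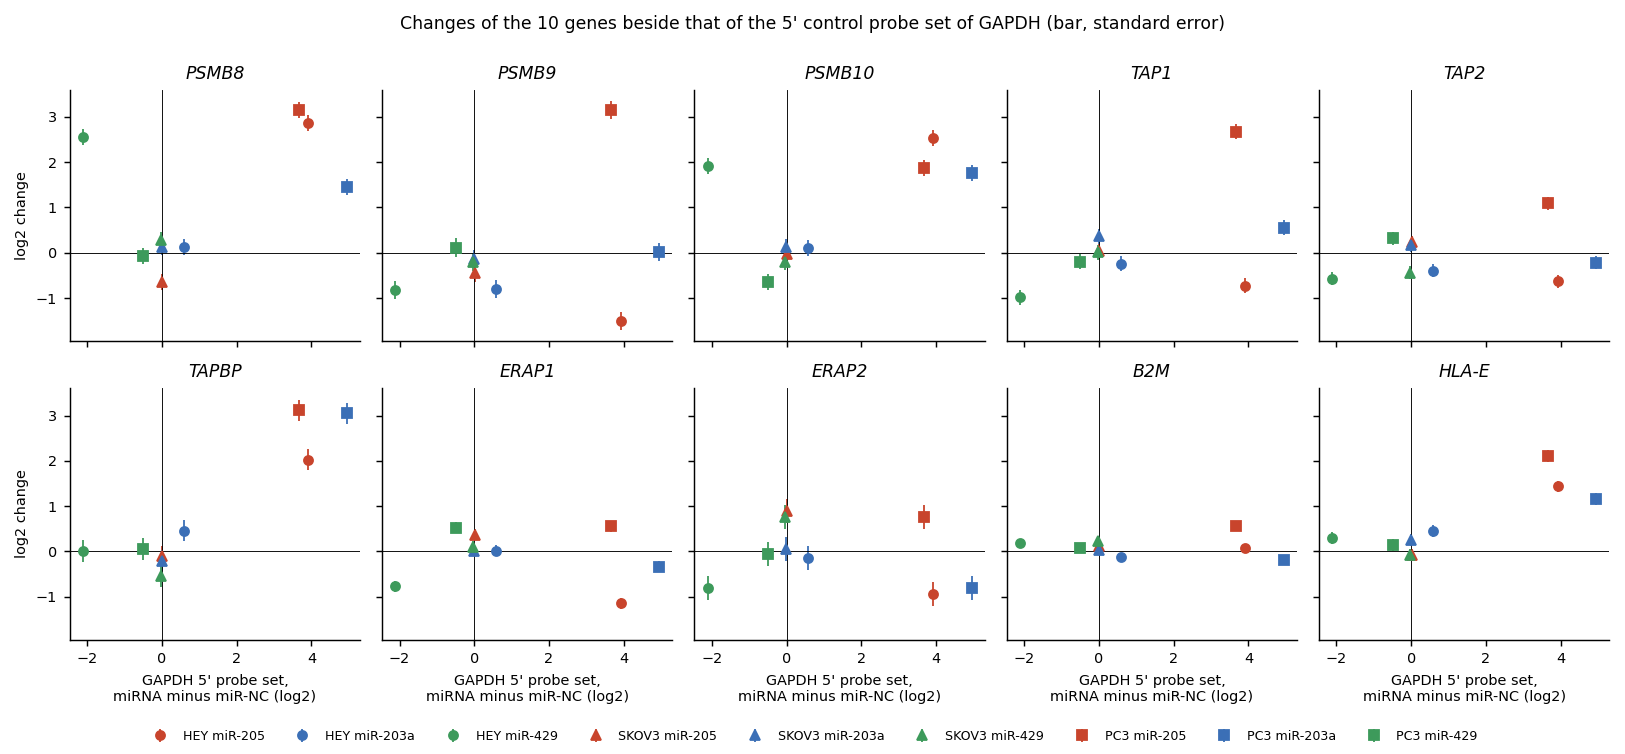
Log2 change of each gene against miR-NC (vertical axis, bar, standard error) beside the change of the GAPDH 5-prime control probe set (horizontal axis, log2) in the 9 comparisons. Colours mark the miRNA and shapes the line; TAPBP and HLA-E are high at the 3 points right of 3, while TAP1 and PSMB9 are high at the PC3 miR-205 point and below 0 at the HEY miR-205 point.

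In HEY cells miR-205 moved the same genes in both directions. Of the 10 genes 4 were called higher and 5 lower, where 65.8% of all genes were called. PSMB8 had 8.21, 7.92 and 7.81 in HEY miR-205, against 5.34, 4.86 and 5.12 in HEY miR-NC (change 2.88 ± 0.18, SE; adjusted p = 2.82e-16). PSMB10 had 8.80, 8.62 and 8.37 in HEY miR-205, against 5.72, 6.10 and 6.36 in HEY miR-NC (change 2.54 ± 0.18, SE; adjusted p = 5.77e-15). TAPBP rose by 2.02 ± 0.24 and HLA-E by 1.43 ± 0.13 (SE). The third immunoproteasome subunit went the other way: PSMB9 fell to 6.29, 6.11 and 6.11 in HEY miR-205, against 7.44, 7.84 and 7.74 in HEY miR-NC (change -1.50 ± 0.20, SE; adjusted p = 3.37e-08). TAP1 fell to 7.65, 7.36 and 7.43 in HEY miR-205, against 8.06, 8.19 and 8.39 in HEY miR-NC (change -0.73 ± 0.17, SE; adjusted p = 0.000213). The arrays of the groups do not overlap for any of these 4 genes, and the share of all genes for which this holds was not computed.

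TAP2 changed by -0.63, ERAP1 by -1.14 and ERAP2 by -0.95 in HEY miR-205 against HEY miR-NC, and all were called lower, but their probe sets disagree. TAP2 was called higher by 204769_s_at (0.94), ERAP1 by 209701_at (1.69) and ERAP2 by 219759_at (1.57). For TAPBP, 210294_at was called lower (-2.31) while the probe set used was called higher. Group means of 210294_at ran from 4.38 to 6.91, reaching below 4.89, so the size of its fall is uncertain. With the probe sets of a gene averaged, TAPBP changed by 0.036 (adjusted p = 0.826 from limma) and ERAP2 by -0.48 (adjusted p = 0.0848), and neither was called. B2M had 12.68, 12.81 and 12.77 in HEY miR-205, against 12.68, 12.69 and 12.68 in HEY miR-NC, with a 95% interval of the change from -0.11 to 0.26 (adjusted p = 0.473).

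HEY miR-429 showed the same split between the subunits. Of the 10 genes 2 were called higher and 5 lower, where 56.8% of all genes were called. PSMB8 had 7.53, 7.54 and 7.89 in HEY miR-429, 2.55 ± 0.18 above HEY miR-NC (SE; adjusted p = 2.19e-14), and PSMB10 had 7.78, 7.97 and 8.16, 1.91 ± 0.18 above it (SE; adjusted p = 2.04e-11). PSMB9 fell to 6.86, 6.76 and 6.92 (change -0.82 ± 0.20, SE; adjusted p = 0.000607), and TAP1 to 7.40, 7.02 and 7.26 (change -0.99 ± 0.17, SE; adjusted p = 4.2e-06). In HEY miR-429 the GAPDH control differed from HEY miR-NC by -2.11 at its 5-prime, 1.65 at its middle and 1.31 at its 3-prime probe set, and the ACTB control by -0.97, 1.74 and 0.33 at its 5-prime, middle and 3-prime probe sets. The part of these in the changes was not tested. TAP2 (-0.57), ERAP1 (-0.77) and ERAP2 (-0.81) were called lower, and again 204769_s_at of TAP2 (0.79), 209701_at of ERAP1 (3.0) and 219759_at of ERAP2 (1.27) were called higher. ERAP2 lost its call without HEY miR-429 replicate 1 (adjusted p = 0.057). HLA-E changed by 0.30 without passing (adjusted p = 0.0526), and its probe set 200904_at was called lower (-1.24). HEY miR-205 and HEY miR-429 share the same 3 miR-NC arrays, so their values are not independent.

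HEY miR-203a moved few of the genes: 1 was called higher and 1 lower, where 13.2% of all genes were called. PSMB9 fell to 6.96, 6.88 and 6.77 in HEY miR-203a, against 7.44, 7.84 and 7.74 in HEY miR-NC (change -0.80 ± 0.20, SE; adjusted p = 0.00515). HLA-E rose to 8.22, 8.25 and 8.09 in HEY miR-203a, against 7.78, 7.80 and 7.67 in HEY miR-NC (change 0.44 ± 0.13, SE; adjusted p = 0.0199). The call of HLA-E was lost without HEY miR-NC replicate 3, HEY miR-203a replicate 1 or HEY miR-203a replicate 2 (adjusted p up to 0.081).

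In SKOV3 the members moved little under any of the miRNAs. With miR-203a 0 of the 10 genes were called by limma, where 11.9% of all genes were called. The single changes ran from -0.21 for TAPBP to 0.36 for TAP1, and 1 of the 10 genes, TAP1, had an unadjusted p under the threshold. The 11.9% holds for adjusted p, and the share of all genes at unadjusted p was not computed. HLA-E was called higher with its probe sets averaged (0.48, adjusted p = 0.00798 from limma). Leaving out probe sets ending in _x_at or _s_at also gave that call (0.72, adjusted p = 0.0116). So did 1 fit per line (0.25, adjusted p = 0.0465). With miR-205, 2 were called higher and 1 lower, where 25.6% of all genes were called. ERAP2 had 9.53, 9.80 and 9.55 in SKOV3 miR-205, against 8.58, 8.90 and 8.76 in SKOV3 miR-NC (change 0.88 ± 0.27, SE; adjusted p = 0.0117). PSMB8 fell to 9.30, 9.29 and 9.32 in SKOV3 miR-205, against 9.69, 10.22 and 9.91 in SKOV3 miR-NC (change -0.64 ± 0.18, SE; adjusted p = 0.00643), and ERAP1 rose by 0.37 (adjusted p = 0.0243). Without SKOV3 miR-NC replicate 2 PSMB8 lost its call (adjusted p = 0.0637). ERAP1 lost it in 4 of 6 fits that left out an array (without SKOV3 miR-NC replicate 1 or 2, or SKOV3 miR-205 replicate 1 or 3), and ERAP2 in 2 (without SKOV3 miR-NC replicate 1 or SKOV3 miR-205 replicate 2).

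With miR-429 in SKOV3, 1 gene was called higher and 1 lower, where 22.1% of all genes were called. ERAP2 had 9.54, 9.28 and 9.68 in SKOV3 miR-429, 0.75 ± 0.27 above SKOV3 miR-NC (SE; adjusted p = 0.0374). TAP2 fell to 7.32, 7.13 and 7.09 in SKOV3 miR-429, against 7.51, 7.55 and 7.80 in SKOV3 miR-NC (change -0.44 ± 0.14, SE; adjusted p = 0.0231). ERAP2 lost its call in 5 of 6 fits that left out an array, all but the one without SKOV3 miR-429 replicate 2, and TAP2 in 3 (without SKOV3 miR-NC replicate 3, or SKOV3 miR-429 replicate 2 or 3). The interval of each TAP1 change in SKOV3 stayed below 0.70 at its upper end, under the rise of TAP1 seen in PC3 miR-205.

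PC3 miR-429 resembled PC3 miR-NC in most of the genes. Of the 10 genes 1 was called higher and 1 lower, where 46% of all genes were called. ERAP1 had 10.07, 10.08 and 10.08 in PC3 miR-429, 0.52 ± 0.12 above PC3 miR-NC (SE; adjusted p = 0.000756). PSMB10 had 4.05, 4.10 and 3.97 in PC3 miR-429, against 4.73, 4.70 and 4.62 in PC3 miR-NC, a change of -0.64 (adjusted p = 0.00323) with both means below 4.89. TAP1 averaged 8.19 ± 0.10 in PC3 miR-429 and 8.39 ± 0.21 in PC3 miR-NC, and PSMB9 averaged 6.00 ± 0.11 in PC3 miR-429 and 5.89 ± 0.39 in PC3 miR-NC (SD, n = 3 each). These counts depend on the scaling: with array medians subtracted, 5 of the genes were called higher and 0 lower. That scaling moved the median change of all genes to 0.29, against -0.13 as deposited, and 77.2% of the calls were then higher, against 35.5%.

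Whether the lines responded differently to each miRNA was tested as a contrast of contrasts. For miR-205, 8 of the 10 genes responded more positively in PC3 than in HEY and 1 more negatively, where 46.2% of all genes were called. The 1 was PSMB10 (-0.66, adjusted p = 0.028 from limma). Its PC3 miR-NC mean was near background, so the size of its rise in PC3 is uncertain and the direction of that difference is not established. Against SKOV3 8 responded more positively in PC3 and 0 more negatively, where 22.5% of all genes did so and 42.3% were called in either direction. The response of PSMB9 was 4.65 ± 0.28 higher in PC3 than in HEY and 3.59 ± 0.28 higher than in SKOV3 (SE). The response of TAP1 was 3.41 ± 0.24 higher in PC3 than in HEY and 2.65 ± 0.24 higher than in SKOV3 (SE). PSMB8 did not pass between PC3 and HEY (0.27 ± 0.25, SE, with the size of its PC3 rise uncertain), while PC3 exceeded SKOV3 by 3.79 ± 0.25 (SE). For SKOV3 against HEY 5 genes responded more positively and 4 more negatively, where 59.8% of all genes were called. The 8 genes higher in PC3 than in HEY include TAP2, ERAP1 and ERAP2, of which other probe sets were called higher in HEY miR-205 and HEY miR-429. With probe sets ending in _x_at or _s_at left out, ERAP1 changed by 1.69 in HEY miR-205 and by 0.22 in PC3 miR-205. Differences between lines were not tested probe set by probe set.

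For miR-203a, 6 of the 10 genes responded more positively in PC3 than in HEY and 4 more positively in PC3 than in SKOV3, with 0 more negatively in either. Of all genes 21.8% responded more positively in PC3 than in HEY (34.8% in either direction), and 24.3% more positively in PC3 than in SKOV3 (43.7% in either direction). TAPBP differed most, by 2.59 ± 0.34 and 3.26 ± 0.34 (SE). Between SKOV3 and HEY 0 of the 10 genes were called by limma, where 4.68% of all genes were called, and 3 of the 10 genes had an unadjusted p under the threshold. The 4.68% holds for adjusted p, and the share of all genes at unadjusted p was not computed. For miR-429, 4 genes responded more positively and 2 more negatively in PC3 than in HEY, where 56.5% of all genes were called. The 2 were PSMB8 (-2.61 ± 0.25, SE) and PSMB10 (-2.55 ± 0.25, SE), whose PC3 miR-429 and PC3 miR-NC means all lay below 4.89. Between PC3 and SKOV3 the count was 1 more positively (TAP2, 0.76) and 0 more negatively, where 7.13% of all genes responded more positively and 27.1% were called in either direction. That count depends on the processing: it was 3 without the arrays labelled untransfected, 4 with quantile normalization or array medians subtracted, and 0 with probe sets averaged or a 2-fold minimum. For SKOV3 against HEY 3 responded more positively and 2 more negatively to miR-429, where 49.1% of all genes were called.

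The miR-NC arrays give the level of each gene in each line. PC3 was called lower than SKOV3 for 7 of the 10 genes and higher for 2, where 81.2% of all genes were called. PC3 was called lower than HEY for 6 and higher for 0, where 31.1% of all genes were called lower and 56.6% in either direction. SKOV3 was called higher than HEY for 6 and lower for 2, where 78.4% of all genes were called. For PSMB8, PSMB9, PSMB10, TAPBP and HLA-E the order was SKOV3, HEY and PC3 from high to low, with every neighbour called different. PSMB8 averaged 4.57 ± 0.24 in PC3 miR-NC, 9.94 ± 0.26 in SKOV3 miR-NC and 5.11 ± 0.24 in HEY miR-NC (SD, n = 3 each). HLA-E averaged 7.06 ± 0.10 in PC3 miR-NC, 11.34 ± 0.02 in SKOV3 miR-NC and 7.75 ± 0.07 in HEY miR-NC.

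TAP1 did not differ between the lines beyond its spread, at 8.39 ± 0.21 in PC3 miR-NC, 8.42 ± 0.02 in SKOV3 miR-NC and 8.21 ± 0.17 in HEY miR-NC. ERAP1 had another order, HEY, PC3 and SKOV3 from high to low, at 9.55 ± 0.15 in PC3 miR-NC, 6.65 ± 0.06 in SKOV3 miR-NC and 10.09 ± 0.04 in HEY miR-NC, each neighbour called different. TAP2 was lowest in SKOV3 miR-NC (7.62 ± 0.15), with PC3 (9.25 ± 0.16) and HEY (9.21) not called apart. B2M was highest in SKOV3 miR-NC (13.26 ± 0.03), with PC3 (12.62 ± 0.11) and HEY (12.68) not called apart. ERAP2 was called lower in PC3 than in SKOV3 (-0.62), and neither differed from HEY beyond the test. The GAPDH 5-prime signal differed by -8.70 between PC3 and SKOV3 and by 5.37 between SKOV3 and HEY, and its part in these differences between lines was not tested.

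On the arrays labelled untransfected, which go against their labels, PSMB8 averaged 10.36 ± 0.18 for HEY, 6.50 ± 0.23 for SKOV3 and 7.81 ± 0.13 for PC3 (SD, n = 3 each). ERAP1 averaged 6.47 ± 0.41 on arrays labelled HEY, 6.67 ± 0.03 on those labelled SKOV3 and 8.03 ± 0.12 on those labelled PC3. TAP1 averaged 8.64 ± 0.29 on arrays labelled HEY, 7.42 ± 0.40 on those labelled SKOV3 and 6.94 ± 0.20 on those labelled PC3. ERAP2 ranged from 7.44 to 9.65 within the 3 arrays labelled untransfected HEY, the widest spread of any member in any group.

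**Figure D4:**
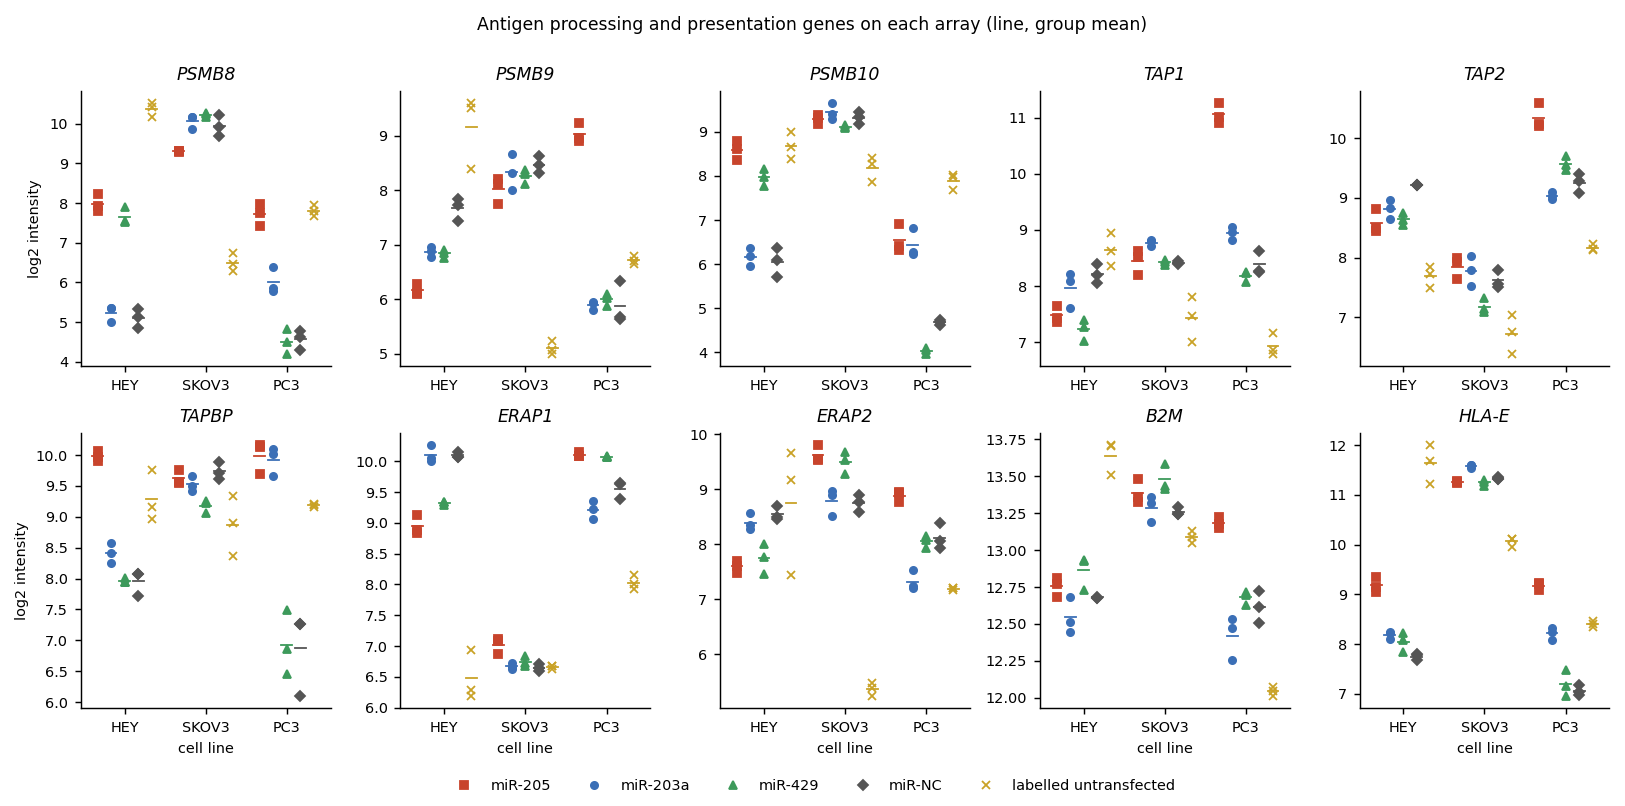
Log2 intensity of each gene (panels) on every array by line and treatment, with a short line at the group mean. In PC3 the miR-205 squares stand above the miR-NC diamonds in all 10 panels, and in HEY they stand above them for PSMB8, PSMB10, TAPBP and HLA-E and below them for PSMB9, TAP1, TAP2, ERAP1 and ERAP2. Each panel shows the probe set used for the gene, and other probe sets of TAPBP, TAP2, ERAP1 and ERAP2 went the other way in HEY miR-205. How many of all genes separate like this was not computed.

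Other genes of the pathway were read from lists chosen with earlier results known. In PC3 miR-205 against miR-NC, 5 of 6 tested class I heavy chains other than HLA-E were called higher and 0 lower, where 28.7% of all genes were called higher. HLA-B had 10.90, 11.04 and 11.47 in PC3 miR-205, against 7.94, 7.90 and 7.97 in PC3 miR-NC (change 3.20 ± 0.17, SE; adjusted p = 3.16e-17). HLA-C rose by 2.92 ± 0.15 and HLA-F by 2.73 ± 0.20 (SE). Against PC3 miR-203a 4 of the 6 were called higher and 0 lower (12.9% of all genes were called higher), HLA-B by 1.65 and HLA-C by 1.59. Heavy chains are close in sequence, and probes may read several of them.

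Of 19 tested regulators and interferon receptors, 9 were called higher and 3 lower in PC3 miR-205 against miR-NC, where 48.4% of all genes were called. Against PC3 miR-203a 6 were called higher and 0 lower, where 12.9% of all genes were called higher and 24.8% in either direction. NLRC5, the transactivator of class I genes, had 7.17, 7.53 and 8.06 in PC3 miR-205, 4.92, 3.42 and 3.73 in PC3 miR-203a, and 5.31, 5.07 and 4.21 in PC3 miR-NC. Its change was 2.72 ± 0.32 against miR-NC and 3.56 ± 0.32 against miR-203a (SE; adjusted p = 7.16e-09 and 6.03e-11). Both sizes are uncertain, since the PC3 miR-203a and PC3 miR-NC means lay below 4.89. IRF1, an interferon-induced factor that binds the ISRE, had 7.68, 7.61 and 7.72 in PC3 miR-205, against 6.36, 6.25 and 6.47 in PC3 miR-203a (change 1.31 ± 0.15, SE; adjusted p = 2.11e-08). IRF9, the DNA-binding part of the complex that STAT proteins form after type I interferon, rose by 1.89 ± 0.23 against miR-NC (SE). RFXANK, a subunit of the RFX complex, rose by 1.98 against miR-NC and differed by 0.0014 from PC3 miR-203a (adjusted p = 0.998). JAK2, a kinase of the interferon gamma receptor, averaged 8.05 ± 0.03 in PC3 miR-205, 6.17 ± 0.09 in PC3 miR-203a and 8.26 ± 0.27 in PC3 miR-NC, so its difference of 1.89 from miR-203a stands beside no call against miR-NC (adjusted p = 0.362).

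Of 17 tested proteasome subunits, activators and assembly factors other than PSMB8, PSMB9 and PSMB10, 12 were called higher and 0 lower in PC3 miR-205 against miR-NC. Of all genes 28.7% were called higher there. Against PC3 miR-203a 2 were called higher and 5 lower, where 24.8% of all genes were called. PSMB3, a structural beta subunit, had 9.41, 9.08 and 9.46 in PC3 miR-205, 10.38, 10.07 and 9.70 in PC3 miR-203a, and 6.49, 6.53 and 7.28 in PC3 miR-NC. It thus stood 2.55 above miR-NC and changed by -0.74 against miR-203a (adjusted p = 0.000685). In HEY 14 of the 17 were called higher and 1 lower with miR-205, and 14 higher and 0 lower with miR-429, with PSMB3 up by 3.10 and 3.40. Of all genes 65.8% were called with miR-205 and 56.8% with miR-429 in HEY. Of 9 tested genes of folding in the endoplasmic reticulum, 6 were called higher and 1 lower in PC3 miR-205 against miR-NC (48.4% of all genes called), and 0 higher and 1 lower against miR-203a (24.8%). Of 6 tested class II genes 1, CD74, the invariant chain, was called higher in PC3 miR-205 against miR-NC (0.72) and against miR-203a (0.51), and 0 lower, where 28.7% and 12.9% of all genes were called higher.

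**Figure D5:**
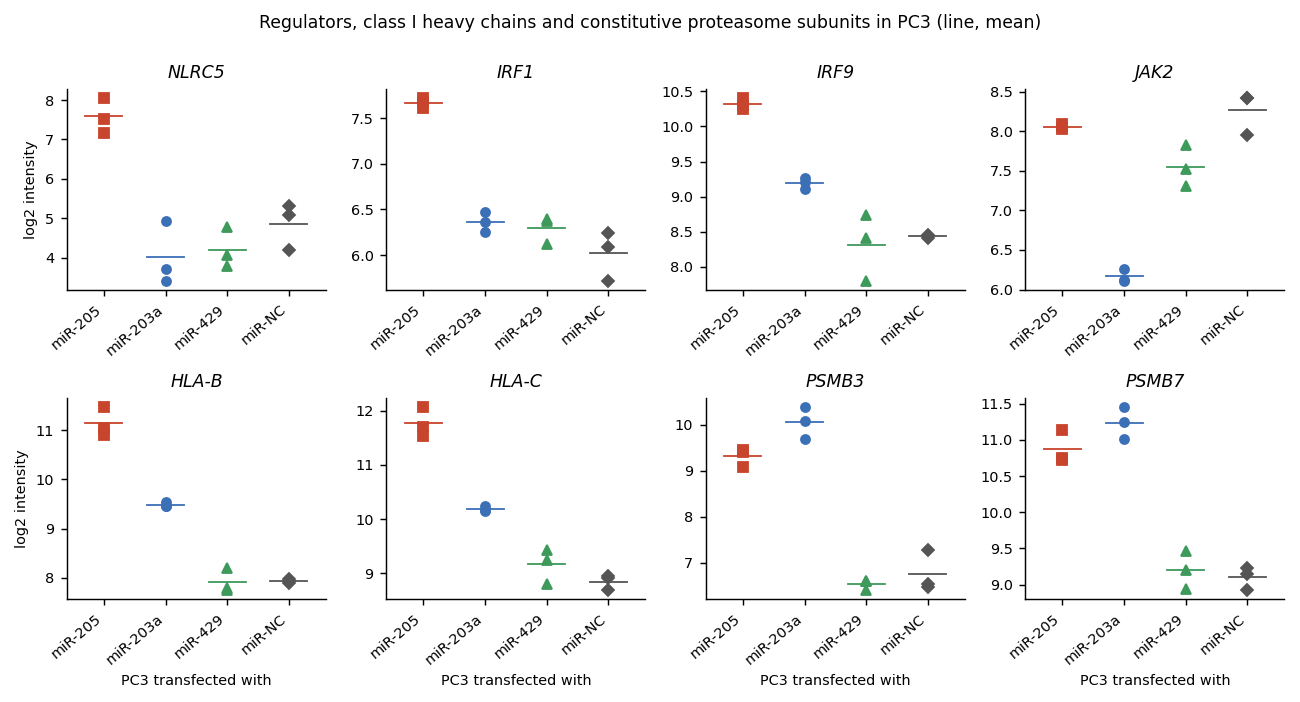
Log2 intensity on each PC3 array (points; line, mean) of 4 regulators, 2 class I heavy chains and 2 constitutive proteasome subunits, by transfected precursor. NLRC5, IRF1, IRF9, HLA-B and HLA-C are highest in the miR-205 group, while PSMB3 and PSMB7 are higher with miR-205 and miR-203a than with miR-429 and miR-NC, and JAK2 is lowest with miR-203a.

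Across the means of the 12 transfected groups the 10 genes did not share 1 profile. The correlation of each with the mean of their standardised profiles ran from 0.923 for PSMB9 to -0.32 for TAP2 and -0.58 for ERAP1. The pair PSMB8 and PSMB10 correlated at 0.947, TAP2 and ERAP1 at 0.901, and HLA-E and ERAP1 at -0.92. The genes outside the set with the highest correlation with the mean profile were GMPR (0.953), SLC15A3 (0.94), CFB (0.921), HLA-B (0.909) and HLA-C (0.905). These values describe 12 group means from 3 lines, and lines and shared arrays contribute to them.

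Markers of blood cells were read because such cells express these genes strongly. Of 14 markers 12 had a probe set, and 5 of these (PTPRC, CD3E, MS4A1, CD14 and NKG7) lay below 4.89 in all 15 groups. CD247, a chain of the T cell receptor complex, lay above it in all 15, with group means of 5.01 to 7.47. HBB lay above it in 9 groups, FCER1G in 4, ITGAM in 3, LYZ in 2, and CD3D and TYROBP in 1 each, with no group mean over 5.58. The sum of the 12 log2 levels ran from 46.9 to 49.5 over the PC3 miR-205 arrays and from 45.8 to 50.3 over the PC3 miR-NC arrays, which overlap.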

How the data were processed

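Gene expression was measured on 45 arrays, and total RNA was amplified from its 3-prime end and biotin-labelled, per the labels' protocols. The authors deposited log2 intensities per probe set made with RMA, per the submitters' processing notes, with no version given. RMA corrects background, normalizes arrays and summarises probes, and depth does not apply: 3 arrays a group set the precision.

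Of 54675 probe sets, 41097 have 1 gene symbol in the platform annotation, 1801 have several and 11777 none. Probe sets with 1 symbol were kept where their highest group mean exceeded 4.89, the median of all values, and the brightest probe set on average stood for each gene. A mean for each of the 15 groups was fitted to all 45 arrays at once (limma 3.58.1, R 4.3.3; degrees of freedom, 30 residual and 5.24 prior). Two-sided p-values were adjusted over the 15599 genes of a comparison after Benjamini-Hochberg, with a threshold of 0.05. The fit was tested on simulated data. Samples were grouped by their labels. The compared groups were each miRNA and miR-NC in its line, PC3 miR-205 and PC3 miR-203a, the responses between lines, and the miR-NC arrays between lines.

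Alternatives were the replicate number as a block, no arrays labelled untransfected, quantile normalization, subtraction of array medians, a stricter filter (7.44) or none, averaging over the probe sets of a gene, leaving out probe sets ending in _x_at or _s_at, a robust variance prior with an intensity trend, a minimum of 2-fold, 1 fit per line, and leaving out each array in turn. Every member was tested in every comparison and is drawn in each comparison of miRNA groups. Not every member is named in the text of each comparison. From the other lists up to 3 called genes with the largest change are named, the regulators and heavy chains drawn by group in PC3 among them. By likeness of profile 5 genes are named. The members and lists were chosen with earlier results of these data known. Figures and sequence searches used Python 3.11.15, pandas 2.3.3 and matplotlib 3.10.9.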

Additional observations from a re-analysis of the deposited data

Results flagged for a closer look

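The following differences between lines in how a gene responded to a miRNA passed the test of the difference itself (limma, adjusted p under 0.05) and were at least 4-fold, that is 2 log2 units. They stand for 16 differences in all. Across the contrasts of responses between lines, 4.68% to 59.8% of all genes were called at any size of difference. The share of all genes that also reached 4-fold was not computed, so the count of 16 has no background beside it.

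In PC3 against HEY, the response to miR-205 was 4.65 higher for PSMB9 and 3.41 higher for TAP1. In PC3 against SKOV3, it was 3.79 higher for PSMB8, 3.59 higher for PSMB9, 3.22 higher for TAPBP, 2.65 higher for TAP1 and 2.19 higher for HLA-E. In SKOV3 against HEY, the difference in the response to miR-205 was -3.51 for PSMB8, -2.57 for PSMB10 and -2.13 for TAPBP. Averaged over its probe sets, TAPBP changed by 0.036 in HEY miR-205 (adjusted p = 0.826 from limma), so its -2.13 depends on the probe set used.

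For miR-203a the response of TAPBP was 2.59 higher in PC3 than in HEY and 3.26 higher in PC3 than in SKOV3. For miR-429 the difference was -2.61 for PSMB8 and -2.55 for PSMB10 in PC3 against HEY, and -2.26 for PSMB8 and -2.11 for PSMB10 in SKOV3 against HEY.

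The HEY miR-205, PC3 miR-203a and PC3 miR-205 arrays also differ from their miR-NC arrays in the 5-prime control probe sets, by 1.22 to 4.95 log2 units, and the HEY miR-429 arrays by -2.11 (GAPDH) and -0.97 (ACTB), while the middle and 3-prime control probe sets of HEY miR-429 are 0.33 to 1.74 above HEY miR-NC. The part of that difference in the values above was not tested. PSMB8 and PSMB10 are near background in PC3 miR-NC and PC3 miR-429, so the sizes of their differences that involve these groups are uncertain.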

How the results depend on the processing

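The labels number the arrays of each group 1 to 3, but arrays with the same number did not deviate together (correlations of -0.15 to 0.13; in each comparison 1 of 3 arrays correlated best with its own number). With the replicate block the PC3 miR-205 count stayed at 10, and 1 of 100 member calls changed: HLA-E in HEY miR-429 (0.30) became called, adjusted p = 0.0473.

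The count of called members changed by over 1.5 times as follows, and the causes were not tested beyond each alternative's own construction. With probe sets ending in _x_at or _s_at left out, 8 members could be tested, since TAP1 and PSMB8 have no other probe set. B2M was then read from 232311_at alone, which averaged 4.34 over all arrays, near background. The count was then 6 in PC3 miR-205 (10 with all probe sets; B2M at 0.25, adjusted p = 0.379, and ERAP1 at 0.22, adjusted p = 0.398, lost their calls), 4 in PC3 miR-205 against miR-203a (8), 1 in HEY miR-203a (2), 1 in SKOV3 miR-203a (0) and 1 in SKOV3 miR-205 (3). With probe sets averaged per gene it was 1 in SKOV3 miR-203a (0), 1 in SKOV3 miR-205 (3) and 0 in SKOV3 miR-429 (2). With a 2-fold minimum it was 5 in PC3 miR-205 against miR-203a (8), 4 in PC3 miR-203a (7), 2 in HEY miR-429 (7), and 0 in HEY miR-203a, SKOV3 miR-205, SKOV3 miR-429 and PC3 miR-429. With a separate fit per line it was 0 in HEY miR-203a and 1 in SKOV3 miR-203a. With array medians subtracted it was 5 in PC3 miR-429 (2). For differences between lines, the 2-fold minimum gave 3 for miR-203a in PC3 against HEY (6), 3 for miR-429 in PC3 against HEY (6), 3 for miR-429 in SKOV3 against HEY (5), 3 for the miR-NC arrays of PC3 against HEY (6) and 0 for miR-429 in PC3 against SKOV3 (1). That last count was also 3 without the arrays labelled untransfected, 4 with quantile normalization, 4 with array medians subtracted and 0 with probe sets averaged. Leaving out 1 array gave 1 to 2 called in HEY miR-203a, 1 to 3 in SKOV3 miR-205 and 0 to 1 in SKOV3 miR-429, against 9 to 10 in PC3 miR-205.

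Quantile normalization moved the share of higher among all calls to 53.2% in SKOV3 miR-205 (65.7% as deposited), 53.5% in SKOV3 miR-429 (67.5%) and 45.4% in PC3 miR-429 (35.5%).

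Directions turned with the choice of probe set. With _x_at and _s_at left out, ERAP1 changed by 0.73 in PC3 miR-203a, 1.69 in HEY miR-205, 3.0 in HEY miR-429 and -0.51 in PC3 miR-205 against miR-203a, HLA-E by -1.24 in HEY miR-429 and B2M by -0.90 in PC3 miR-429. With probe sets averaged, TAP2 changed by 0.057, TAPBP by -0.77, ERAP1 by 0.090 and ERAP2 by 0.21 in HEY miR-429, and B2M by -0.36 in PC3 miR-429. Both B2M values draw on 232311_at, the only B2M probe set without such an ending. It averaged 4.34 over all arrays, near background, so these B2M turns are uncertain.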
